A study of Homo sapiens with 4 samples.

Results

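The ARID5B and RTKN2 locus is a 550-kb stretch of the long arm of chromosome 10, chr10:63550000-64100000 in hg19, and the members described here are the FOXA2 peaks whose summits lie in it. There were 50 such peaks of 36154 in both lists, 24 of 14846 after GSK2879552 and 26 of 21308 in vehicle. The window was chosen by the number of peaks in both lists, which were dense there, so that number is a description and carries no test. FOXA2 ChIP-seq was done in PC3, a prostate cancer cell line. Cells of the first group received 50 µM GSK2879552 for 4 hours and cells of the other group received vehicle, all in medium with 5% charcoal-stripped serum. Each group had 2 lanes, described as technical replicates, behind 1 peak list, so every difference is between 2 libraries and the spread between cultures is not measured. The labels give no separate time for vehicle.

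FOXA2 is a forkhead transcription factor of endodermal tissues that can bind its sites in compact chromatin. GSK2879552 inhibits LSD1 (KDM1A), an enzyme that removes methyl groups from histone H3 and some other proteins. ARID5B is a DNA-binding protein with an AT-rich interaction domain that works with the histone demethylase PHF2, and its introns carry common variants linked to childhood acute lymphoblastic leukaemia. RTKN2 is its neighbour on the right. The limits of ARID5B were taken as 63.66 to 63.86 Mb and those of RTKN2 as 63.95 to 64.03 Mb in hg19, both rounded to 10 kb, so a peak within 5 kb of a limit may lie on either side of it. ARID5B is read from left to right and RTKN2 from right to left, so the genes lie tail to tail. In the RefSeq gene order of GRCh38.p14 the next protein-coding gene to the left is CABCOCO1 and the next to the right is ZNF365.

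The bases before the annotated starts of both genes are shown because FOXA2 binds forkhead motifs and the locus is named for these genes. They are the 250 bases before each start in RefSeq (GRCh38.p14). All 3 start entries of the 2 genes were found, and each window is written 5′ to 3′ in the direction of its gene. Capitals mark a match to TGTTTAC, to TGTTTGC or to TATTTAC on either strand.
ARID5B, chr10:61901449-61901698, plus strand: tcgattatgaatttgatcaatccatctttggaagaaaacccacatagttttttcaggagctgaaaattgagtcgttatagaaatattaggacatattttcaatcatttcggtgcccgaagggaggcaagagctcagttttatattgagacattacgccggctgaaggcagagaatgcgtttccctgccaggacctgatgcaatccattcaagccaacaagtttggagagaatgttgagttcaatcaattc
ARID5B, chr10:62049107-62049356, plus strand: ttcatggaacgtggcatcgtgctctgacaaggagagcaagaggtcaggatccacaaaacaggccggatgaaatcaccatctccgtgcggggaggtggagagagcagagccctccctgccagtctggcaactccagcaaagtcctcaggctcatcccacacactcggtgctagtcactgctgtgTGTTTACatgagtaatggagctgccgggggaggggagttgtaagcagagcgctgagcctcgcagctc
RTKN2, chr10:62268845-62269094, minus strand: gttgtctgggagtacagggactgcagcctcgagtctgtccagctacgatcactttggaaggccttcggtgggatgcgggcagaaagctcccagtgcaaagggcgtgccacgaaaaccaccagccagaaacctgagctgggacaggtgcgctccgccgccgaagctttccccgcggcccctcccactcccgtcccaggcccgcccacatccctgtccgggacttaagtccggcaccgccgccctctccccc
The window at chr10:62049107-62049356 held 1 match, TGTTTAC, which begins 67 bases before that start of ARID5B. The other 2 windows held none. Of 35116 such windows of all genes in the table, 8.27% held at least 1 of the 3 motifs and 2.98% held TGTTTAC. A match is a run of letters and not a measured site. The peaks are placed in hg19 and these windows in GRCh38, so whether a peak covers any of them was not tested, and sequence under the peaks was not analysed here.

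Peaks ran from the left edge of the locus to 21.5 kb short of the right limit of RTKN2, with long empty stretches in between. Numbered from left to right, the peaks formed 28 sites. Of these, 22 were called in both lists, 2 after GSK2879552 alone and 4 in vehicle alone. A site counts as called in both lists when its intervals overlap by at least 1 bp. To the left of ARID5B lay 4 peaks after GSK2879552 and 4 in vehicle. Within ARID5B there were 8 peaks after GSK2879552 and 9 in vehicle, and between the genes 4 and 4. RTKN2, the shorter gene, held 8 and 9. Per 100 kb this was 4.00 peaks after GSK2879552 and 4.50 in vehicle for ARID5B, against 10.0 and 11.2 for RTKN2. No peak of either list lay in the 70 kb from the right limit of RTKN2 to the end of the window.

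**Figure D1:**
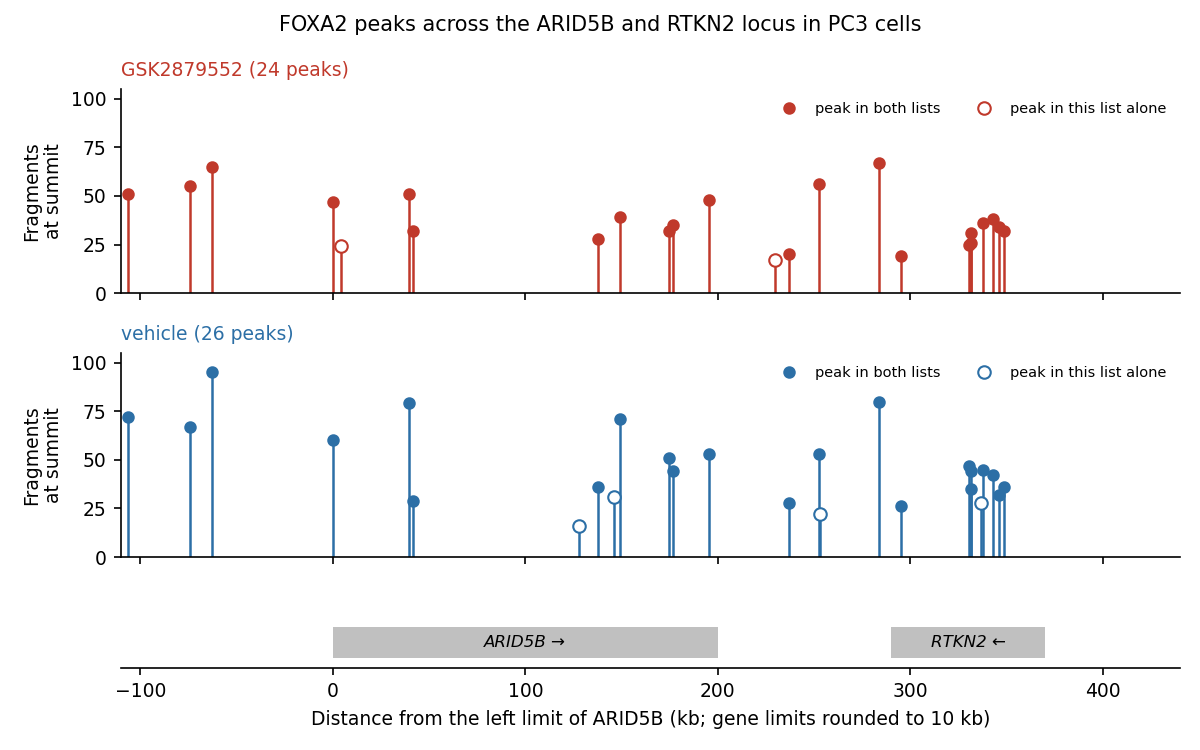
Fragments at the summit of each FOXA2 peak (vertical axis) by distance from the left limit of ARID5B in kb (horizontal axis), for GSK2879552 (top, 24 peaks) and vehicle (bottom, 26 peaks). Open circles are peaks of 1 list alone, grey bars are the genes with limits rounded to 10 kb, and arrows give their direction. The highest stem is to the left of ARID5B in vehicle, at 95 fragments, and between the genes after GSK2879552, at 67.

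Strength is given as the number of sequenced fragments covering the summit, background included, computed from the deposited fold and −log10 p. Fragments at the 24 GSK2879552 summits ranged from 17 to 67 with a median of 34.5, against 16 to 95 with a median of 44.0 at the 26 vehicle summits. Over all peaks the median was 18 in both lists. The locus held no peak near the smallest number called anywhere, which was 7 in both lists. Its peaks also stood on a raised local background, over which so few fragments could not have been called. At site 8, with the lowest background of the locus, the lowest −log10 p of the GSK2879552 list would have needed 13 fragments. The median background was 5.49 fragments at the GSK2879552 peaks and 5.65 at the vehicle peaks, against 1.71 and 1.68 over all peaks of these lists. The lowest background in the locus was 3.75 after GSK2879552 and 3.60 in vehicle, above the upper quartiles of all peaks, 2.37 and 2.33. The same held in part beyond the locus. Among 225 other pairs of peaks on chromosome 10 between 60 and 82 Mb the median background was 4.40 after GSK2879552 and 4.62 in vehicle, and among all 725 other pairs on chromosome 10 it was 3.23 and 3.40. The part that the background plays in the strength of these sites was not tested.

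A raised background lowers the authors' fold and −log10 p for a given number of fragments. The median fold in the locus was 5.33 after GSK2879552 and 6.69 in vehicle, both below the medians of 6.60 and 7.06 over all peaks, although the fragments were above the median. By −log10 p, 5 of the 24 GSK2879552 peaks (20.8%) and 6 of the 26 vehicle peaks (23.1%) were among the strongest 10% of their list. The weaker 50% by rank took 6 GSK2879552 peaks and 7 vehicle peaks. Site 5, a peak after GSK2879552 alone, is an example: with 24 fragments over a background of 6.20, more than the list's median of 18, it ranked 12999 of 14846.

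The 5 strongest sites called in both lists, by vehicle −log10 p, lay at 3 places: to the left of ARID5B, in its first part and just before RTKN2. Site 3 (chr10:63596896-63597378, given as the vehicle interval here and for the other shared sites) lies 62.9 kb to the left of ARID5B. It had 65 fragments after GSK2879552 (95% Poisson interval 50.2 to 82.8) and 95 in vehicle (76.9 to 116), and it ranked 405 and 205 in the lists. It had the most fragments of all vehicle peaks of the locus.

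Site 19 (chr10:63943694-63944028), between the genes and 86.1 kb from the right limit of RTKN2, had 67 fragments after GSK2879552 (51.9 to 85.1) and 80 in vehicle (63.4 to 99.6). This was the highest peak of the locus after GSK2879552, with rank 318 there and rank 361 in vehicle. Site 1 (chr10:63553486-63553859), at the left edge of the window, had 51 fragments after GSK2879552 (38.0 to 67.1) and 72 in vehicle (56.3 to 90.7). Site 6 (chr10:63699363-63699666), 39.5 kb inside ARID5B, had 51 after GSK2879552 (38.0 to 67.1) and 79 in vehicle (62.5 to 98.5). All 4 of these sites were lower after GSK2879552, with intervals of the 2 numbers that overlapped. The counting interval of their ratio, scaled as described below, is a closer comparison. It lay below 1 at site 3 (0.490 to 0.946) and site 6 (0.444 to 0.928). At site 1 (0.484 to 1.03) and site 19 (0.595 to 1.17) it reached above 1. At site 2 (chr10:63585388-63585745), 74.5 kb to the left of ARID5B, the numbers were 55 (41.4 to 71.6) and 67 (51.9 to 85.1).

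The left limit of ARID5B carried site 4 (chr10:63659796-63660169), whose vehicle summit was 0.078 kb to the left of the limit as rounded. Because of that rounding, whether the peak is at the start of the gene cannot be told apart from a position up to 5 kb away. It had 47 fragments after GSK2879552 (34.5 to 62.5) and 60 in vehicle (45.8 to 77.2). RTKN2 differed in this respect: the peak nearest to its start, site 28, was 21.5 kb inside the right limit of the gene, with 32 fragments after GSK2879552 and 36 in vehicle. Its peaks lay from 21.5 to 74.9 kb inside that limit, in the middle and the 3′ part of the gene.

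**Figure D2:**
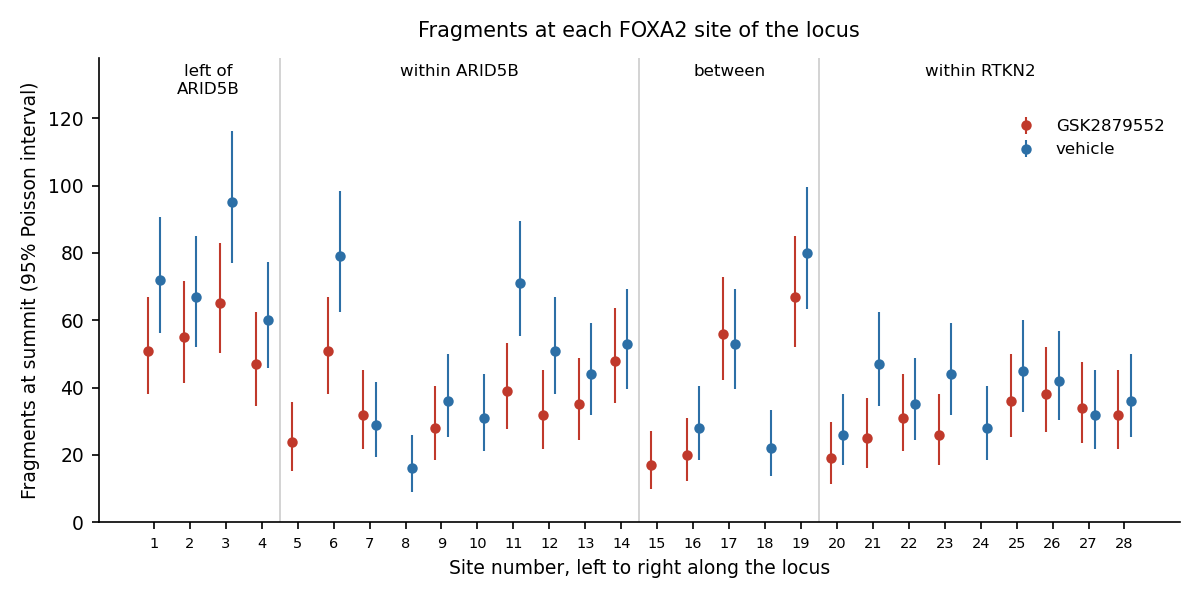
Fragments at the summit (vertical axis, with exact 95% Poisson intervals) at each of the 28 sites, numbered from left to right, for GSK2879552 (red, drawn left) and vehicle (blue). Sites without a point in 1 colour had no peak in that list. Red points lie below blue points at 19 of the 22 sites with both.

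Summed over the 22 shared sites, summits carried 867 fragments after GSK2879552 (810 to 927) and 1125 in vehicle (1060 to 1193). Scaled by the background floors of the lists (1.082 and 1.079 fragments), the ratio was 0.769 (exact interval 0.703 to 0.841, counting error only). The same ratio over all 13178 other pairs of shared peaks was 0.798 (0.794 to 0.802), inside the interval of the locus. The median log2 ratio was -0.34 over the locus pairs, with an interquartile range of -0.54 to -0.17, and -0.32 over the other pairs, with -0.57 to -0.08. Among sites called in both lists, the lower number of fragments after GSK2879552 was therefore of the size found at the other shared pairs. Peaks of 1 list alone have no ratio and are left out of both values. In vehicle these were 4 of 26 peaks in the locus and 8091 of 21308 over the whole list. The other pairs on chromosome 10 between 60 and 82 Mb had a median of -0.37. The local background of the locus pairs differed less than their summits, with a median log2 ratio of -0.06.

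Fewer scaled fragments after GSK2879552 were counted at 19 of the 22 locus pairs (86.4%), against 83.7% of all pairs. A ratio at least 1.5-fold lower was found at 5 locus pairs (22.7%), against 24.9% of all pairs. A ratio at least 1.5-fold higher was found at 0 locus pairs, against 0.826% of all pairs. Each of these shares is near that of all pairs. The counting interval of the ratio lay wholly below 1 at 6 locus pairs (27.3%), against 8.24% of all pairs, and above 1 at 0, against 0.0227%. Locus pairs carried more fragments, a median of 35.5 after GSK2879552 and 46.0 in vehicle against 19 and 24 at the other pairs. An interval narrows as fragments rise. Pairs of like fragment number were not compared, so the part this plays in the higher share was not tested.

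The sites with a ratio at least 1.5-fold lower were 3 in ARID5B and 2 in RTKN2. The lowest was site 21 (chr10:63990479-63990839), in RTKN2, with 25 fragments after GSK2879552 (16.2 to 36.9) and 47 in vehicle (34.5 to 62.5), a scaled ratio of 0.531 (0.313 to 0.880). Site 11 (chr10:63808881-63809353), 149 kb inside ARID5B, had 39 after GSK2879552 (27.7 to 53.3) and 71 in vehicle (55.5 to 89.6), a ratio of 0.548 (0.361 to 0.821). RefSeq also gives ARID5B a start to the right of its first. In GRCh38 the windows before these starts end at 61901698 and 62049356. If their distance is the same in hg19, the second start lies within several kb of site 11. The same holds for site 10, 146 kb inside ARID5B. The rounded gene limit leaves the exact distances open, so whether either peak covers that start was not tested. Site 23 (chr10:63991644-63991936), in RTKN2, had 26 and 44, a ratio of 0.590 (0.349 to 0.979). Site 12 (chr10:63834618-63834910) and site 6, both in ARID5B, had ratios of 0.626 (0.389 to 0.993) and 0.644 (0.444 to 0.928). These sites and site 3, at 0.683 (0.490 to 0.946), are the 6 whose intervals lay below 1. They were picked as the lowest of 22, which by itself favours low values.

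At 3 shared sites the number was higher after GSK2879552, by little. Site 7 (chr10:63701606-63701937), 41.8 kb inside ARID5B, had 32 fragments after GSK2879552 (21.9 to 45.2) and 29 in vehicle (19.4 to 41.6), the highest scaled ratio of the locus at 1.10 (0.645 to 1.89). Its neighbour, site 6, lay 2320 bp away and was among the lowest. Site 27 (chr10:64005938-64006169), in RTKN2, had 34 after GSK2879552 and 32 in vehicle, a ratio of 1.06 (0.635 to 1.77). Site 17 (chr10:63912236-63912529), between the genes, had 56 and 53, a ratio of 1.05 (0.711 to 1.57). The intervals of all 3 reach well below and above 1.

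**Figure D3:**
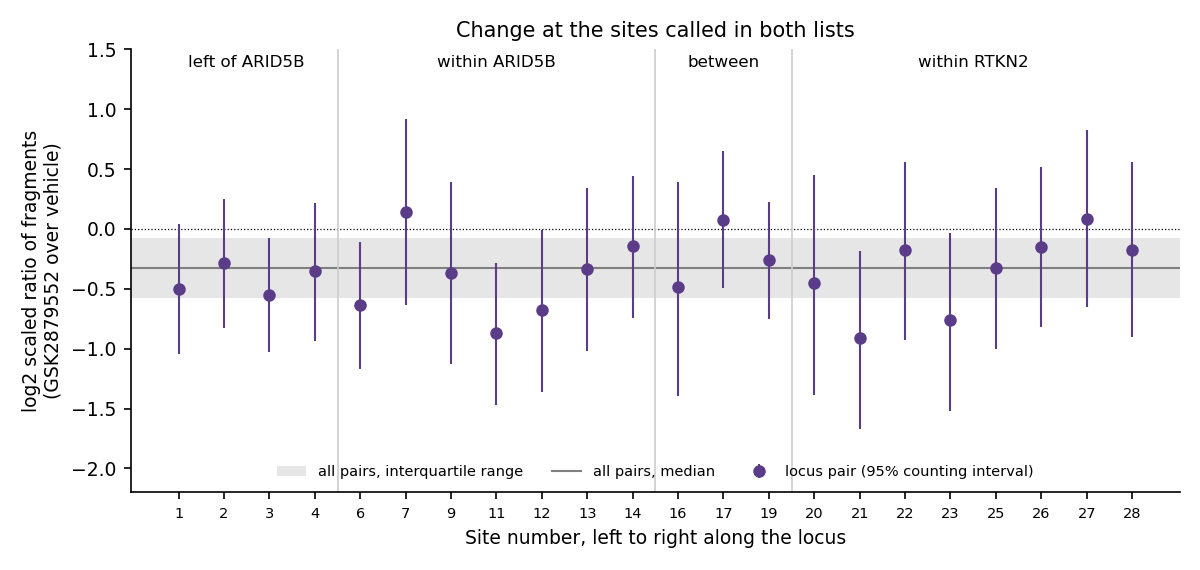
The log2 scaled ratio of fragments, GSK2879552 over vehicle (vertical axis, points with 95% counting intervals), at the 22 sites called in both lists, from left to right (horizontal axis). The grey line and band are the median (-0.32) and interquartile range (-0.57 to -0.08) of all 13200 pairs, and the dotted line is no difference. Points run from -0.91 at site 21 to 0.14 at site 7.

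The parts of the locus had overlapping ranges. The 4 sites to the left of ARID5B carried 218 fragments after GSK2879552 and 294 in vehicle, a scaled ratio of 0.740 (0.618 to 0.885). The 7 shared sites of ARID5B carried 265 and 363, a ratio of 0.729 (0.619 to 0.856), and the 8 of RTKN2 carried 241 and 307, a ratio of 0.783 (0.659 to 0.930). The ratio was 0.886 (0.703 to 1.12) at the 3 sites between the genes, with 143 and 161 fragments. These intervals overlap and cover counting error only. The parts were not compared by a test, so whether the genes differ is not shown. The 15 pairs with 40 or more vehicle fragments had a ratio of 0.742 (0.670 to 0.820), against 0.881 (0.723 to 1.07) for the 7 with fewer. That split uses the vehicle numbers, which favours a lower ratio where they are high.

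Close groups of sites made up much of RTKN2. At chr10:63990479-63991936, sites 21, 22 and 23 lay within 1458 bp, with summits 553 bp or more apart after GSK2879552 and 513 bp or more apart in vehicle, farther apart than the shortest intervals of the lists, 168 and 175 bp. Together they had 82 fragments after GSK2879552 and 126 in vehicle, a scaled ratio of 0.649 (0.486 to 0.864). The middle site of the group, site 22 (chr10:63991145-63991360), differed less than its neighbours, with 31 after GSK2879552 (21.1 to 44.0) and 35 in vehicle (24.4 to 48.7). Its ratio of 0.884 had an interval (0.527 to 1.48) that covered the ratios of both neighbours. Within 1379 bp at chr10:63996794-63998172 lay 1 peak after GSK2879552, with 36 fragments, and 2 in vehicle, with 45 at site 25 and 28 at site 24.

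Peaks in 1 list alone all ranked in the weaker 50% of their own list, from 55.1% (site 24) to 97.4% (site 8) of the way down it. The whole lists show the same tendency. Across 10 bins by rank, weakest to strongest, the overlapped share rose from 19.6% to 100% of vehicle peaks. For GSK2879552 peaks it rose from 69.7% to 100%. Overlap with the other list was found for 22 of the 24 GSK2879552 peaks (91.7%, exact binomial interval 73.0 to 99.0), against 89.2% of all GSK2879552 peaks. It was found for 22 of the 26 vehicle peaks (84.6%, 65.1 to 95.6), against 62.0% of all vehicle peaks. Locus peaks were stronger than most, and 12 of the 26 vehicle peaks were in the top 20% of the list by rank, all of them overlapped. In the top 20% of the whole vehicle list 4228 of 4261 were overlapped. The share in the locus is thus set beside a list with more weak peaks. The part that strength plays in the higher share was not tested.

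The 4 vehicle-only sites were 2 in ARID5B, 1 between the genes and 1 in RTKN2. Site 10 (chr10:63805907-63806120), in ARID5B, had 31 fragments over a background of 6.96, with a GSK2879552 summit 3048 bp away. Site 24 (chr10:63996794-63997061), in RTKN2, had 28 fragments over 5.08, with a GSK2879552 summit 1025 bp away. Both had more fragments than the median vehicle peak. Site 18 (chr10:63913012-63913201), between the genes, had 22 over 5.20 with a GSK2879552 summit 688 bp away, and site 8 (chr10:63788007-63788186), in ARID5B, had 16 over 3.60 with one 9812 bp away. Site 8 ranked 20758 of 21308, among the weakest vehicle peaks.

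The 2 sites found after GSK2879552 alone stood 87.6% (site 5) and 94.7% (site 15) of the way down their list. Site 5 (chr10:63663829-63663996) lies 3.98 kb inside the left limit of ARID5B as rounded, with 24 fragments (15.4 to 35.7) over a background of 6.20. A vehicle summit lay 4054 bp away. Site 15 (chr10:63889411-63889589), between the genes, had 17 fragments (9.90 to 27.2) over 3.75 and a vehicle summit 7233 bp away. Site 5 had the shortest interval the list reports, 168 bp, and site 15 had 179 bp.

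No peak in a list is not a count of 0. At the background of the other list, a summit reaching the lowest −log10 p of the GSK2879552 list (4.49) would have needed 20 fragments at site 10, 17 at site 18, 16 at site 24 and 13 at site 8. The vehicle numbers there were 31, 22, 28 and 16. Reaching that number is needed for a peak but is not enough for one, since the interval must also be long enough. In vehicle, with a lowest −log10 p of 4.01, the number was 17 at site 5, where GSK2879552 had 24, and 13 at site 15, where it had 17. At site 24 a summit just at this limit would have given a scaled ratio of 0.570, with 0.644 at site 10, 0.771 at site 18 and 0.811 at site 8. These values lie within the range of the shared sites. No GSK2879552 number was measured there, and a lower one would give a lower ratio, so how these sites compare with the shared ones is not shown. At the sites found after GSK2879552 alone, a vehicle summit at the limit would have given 1.41 at site 5 and 1.31 at site 15 (GSK2879552 over vehicle). Both are above 1.10, the highest ratio of a shared site (site 7, interval 0.645 to 1.89). These 2 values too rest on an assumed number and not on a measured one. A lower vehicle number would give a higher ratio, so how these sites compare with the shared ones is not shown either.

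**Figure D4:**
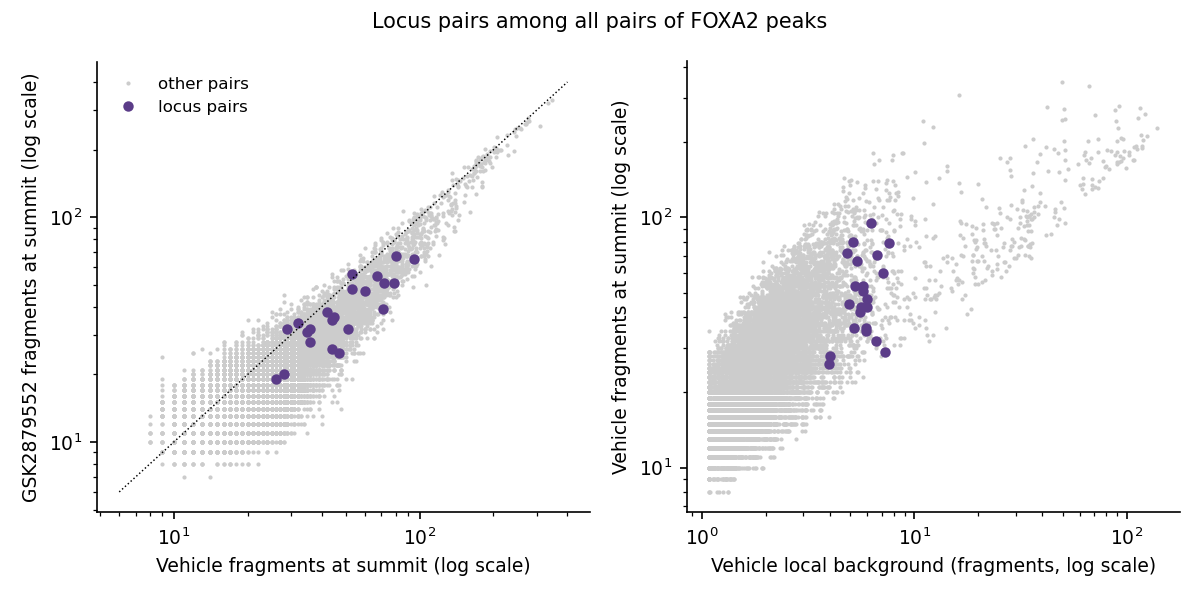
Left: fragments at the summit of each pair of shared peaks, GSK2879552 (vertical axis) by vehicle (horizontal axis), with the dotted line of equal numbers; right: vehicle fragments at the summit (vertical axis) by vehicle local background (horizontal axis), all on log scales. Purple points are the 22 locus pairs and grey points the 13178 other pairs. Locus pairs lie within the cloud on the left, and on the right at backgrounds of 3.97 to 7.61 fragments, above the median of 1.86 of the other pairs.

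Summits of shared sites lay close together in the lists. Those of the 22 locus pairs were 1 to 88 bp apart with a median of 19.5 bp, against 23 bp over the other pairs, and only sites 4 and 16 had summits more than 50 bp apart. Median widths were 280.0 bp after GSK2879552 and 306.5 bp in vehicle, against 252 and 290.0 bp for the other pairs. Intervals were narrower after GSK2879552 at 17 locus pairs (77.3%), against 75.0% of all pairs. The widest peak of both lists in the locus was site 14 (chr10:63855238-63855809), near the 3′ limit of ARID5B, with 408 bp after GSK2879552 and 572 bp in vehicle. Its fragments differed by less than their intervals, 48 (35.4 to 63.6) and 53 (39.7 to 69.3).

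Spacing within the locus was close and uneven. The median distance to the nearest summit of the same list was 4.62 kb after GSK2879552 and 2.68 kb in vehicle, against 34.3 kb and 23.8 kb over all peaks, which is what the choice of a dense window gives. The longest gap between neighbouring summits of the locus was inside ARID5B, where 96.1 kb separated sites 7 and 9 after GSK2879552 and 86.3 kb separated sites 7 and 8 in vehicle. From the last summit, at site 28, to the next peak beyond the window the distance was longer, 131 kb after GSK2879552 and 104 kb in vehicle. Just outside the window, the nearest peak on the left was 40.8 kb beyond the edge after GSK2879552, with 19 fragments, and 28.3 kb beyond it in vehicle, with 26. On the right the nearest was 39.9 kb beyond after GSK2879552, with 38 fragments, and 12.6 kb beyond in vehicle, with 24. The 200 kb at chr10:63800001-64000000 held 13 peaks after GSK2879552 and 15 in vehicle. Of the 200-kb windows with any peak, 13 of 7355 held at least as many after GSK2879552 and 14 of 8695 in vehicle, this one included.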

How the data were processed

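FOXA2 ChIP-seq peak lists of PC3 cells were analysed, 1 per group, each covering 2 lanes. MACS2 2.1.2, BWA 0.7.2 and SAMtools 0.1.18 served to make them on hg19 (GRCh37), per the submitters' processing notes. How they were set, how duplicates were treated, and whether a control library was used is not given in the sources used here. Titles and series name FOXA2 ChIP-seq, which was followed, although the sample descriptions say ATAC-seq.

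The authors' fold is a ratio, (fragments at the summit + 1) / (local background + 1). The deposited −log10 p-value of each peak comes from the authors' peak caller, as does its q-value on the −log10 scale. The deposited score equals that −log10 q-value times 10, cut to a whole number. All folds, ranks and −log10 p cited rest on the authors' values and were compared within a list only.

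Fragments at each summit and the local background were solved from the fold and −log10 p, taking p as a Poisson upper tail. A whole number under 1500 matched within 0.001 for 100% of peaks of both lists, and the solution was tested on simulated data. Peaks were shared at 1 bp of overlap, checked with bedtools 2.31.1, and pairs were mutual best partners. Ratios were scaled by the lowest background of each list, 1.082 fragments per position after GSK2879552 and 1.079 in vehicle, a factor of 0.998 (vehicle over GSK2879552). Divided by the shortest interval, taken as the fragment length, these floors give 6.44 reads per kb after GSK2879552 and 6.17 in vehicle, a ratio of 1.04 that was not used for scaling. Both readings assume that the background came from the immunoprecipitated library itself, which no source used here states. Intervals are exact 95% Poisson or binomial intervals (scipy 1.17.1) and cover counting error only. The interval of an overlapped share treats the peaks of 1 list as independent, which neighbouring peaks may not be, and gives no spread between cultures. With 1 list per group no test was made. Named were the 5 strongest shared sites, the sites of 1 list alone and the lowest and highest ratios; other sites were named after their values were seen. The members, lists and settings were chosen with earlier results of these data known. Gene limits in hg19 were at hand for ARID5B and RTKN2 alone, so peaks near related genes were not analysed here.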

Additional observations from a re-analysis of the deposited data

How the results depend on the processing

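Of 37 recomputed values of 12 results, 32 kept their direction and stayed within counting error or within 1.5 times of the count. A −log10 q of 10 or more in both lists left 15 GSK2879552 peaks in the locus, and a fold of at least 5 left 13. The 200-kb window in place of the whole one held 13 GSK2879552 and 15 vehicle peaks. With a −log10 q of at least 5, 100% of GSK2879552 peaks were overlapped. The vehicle share fell from 84.6% to 70.0% (14 of 20) with a −log10 q of at least 10. It is counted among the 32 because it stayed inside a wide interval, 65.1 to 95.6. Stricter limits and a smaller window leave fewer peaks by construction. The ratio of peak numbers, 0.923 as deposited, ranged from 0.650 (fold of at least 5) to 0.880 (−log10 q of at least 5). All of these lie inside its wide interval, 0.507 to 1.67. The whole lists held 14846 GSK2879552 and 21308 vehicle peaks, and chromosome 10 held 829 and 1124. Both give a ratio below that of the locus but inside the same interval. The fold falls as the local background rises, whereas fragment numbers include that background. The median log2 ratio ranged from -0.39 to -0.33. No lane could be left out, because the lists were made from both. The motif search at summits was not run. No paired analysis was possible because the 2 lanes of a group share its list. Depth limits the weakest sites, where 16 or 17 fragments at a summit leave intervals of 9.15 to 26.0 and 9.90 to 27.2.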
